A study of Mus musculus with 2 samples.

Results

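The expression of 10 apolipoprotein genes (Apoe, Apoc1, Apoc2, Apoc4, Apoc3, Apoa1, Apoa2, Apoa4, Apob and Apoh) was examined in liver macrophages, out of 22322 genes in the table. The genes were chosen by symbol, at a time when their FPKM values in both libraries were already known, so their levels and ratios are descriptions and no test is attached to them. They were divided by known usage into 4 genes known from macrophages (Apoe, Apoc1, Apoc2 and Apoc4) and 6 genes made by hepatocytes (the others). Each symbol matched exactly 1 Ensembl gene.

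Macrophages were taken from the liver of wild-type (WT) mice and of mice lacking FABP7, a fatty acid binding protein, in the whole body (FABP7 KO, on a C57BL/6J background per the methods, C57BL/6 in the labels). Both groups carried liver metastases of MC38, a mouse colon carcinoma line, 10 days after splenic injection of 500000 cells. Cells were obtained by collagenase digestion and magnetic F4/80 positive selection, and the methods describe male mice aged 6 to 8 weeks for all experiments. There was 1 library for each genotype, from a number of mice that the sources used here do not give, and no difference between the libraries has a replicate check. The label of the KO sample reads knockdown in its genotype field and KO in its title. The values are FPKM (fragments per kilobase of transcript, scaled to the sequencing depth), so levels of different genes can be compared per length. Fabp7 itself was at 354 FPKM (WT) and 0.69 FPKM (KO).

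Apolipoproteins are the protein part of lipoproteins, the particles that carry triglyceride and cholesterol in plasma. Apolipoprotein B is the non-exchangeable scaffold of the particles that the liver secretes, whereas the small A, C and E apolipoproteins move between particles and act as receptor ligands, activators or inhibitors of lipases. Hepatocytes make most of them. Macrophages are known to secrete apolipoprotein E, which accepts cholesterol leaving the cell, and in macrophages the linked Apoe and Apoc genes are known targets of the oxysterol receptors LXR. Hepatocytes also express Apoe and Apoc1, so the division into macrophage and hepatocyte genes is one of known usage and not of exclusive expression.

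The genes known from macrophages lie side by side on chromosome 7, in the order Apoc2, Apoc4, Apoc1 and Apoe on the same strand. Apoa1, Apoc3 and Apoa4 form another cluster on chromosome 9, followed by Apoa5. Apoa2 is on chromosome 1, Apoh on chromosome 11 and Apob on chromosome 12. RefSeq promoter windows (build GRCm38.p6) were at hand for 8 of the 10 genes, all but Apoc1 and Apoc3. The bases before the start site are shown for the most abundant gene (Apoe, the first of its 3 windows) and a low-abundance gene (Apoc2) of the macrophage cluster, for the most abundant hepatocyte gene (Apoa1) and for Apob. They lie at chr7:19699189-19699438 (minus strand), chr7:19677942-19678191 (minus strand), chr9:46228380-46228579 (plus strand) and chr12:7977427-7977647 (plus strand). Each is given 5′ to 3′ and ends where the first transcript annotated in the window by RefSeq or GENCODE starts. Windows of the same gene can share bases. Capitals mark matches to any of the motifs searched.
Apoe: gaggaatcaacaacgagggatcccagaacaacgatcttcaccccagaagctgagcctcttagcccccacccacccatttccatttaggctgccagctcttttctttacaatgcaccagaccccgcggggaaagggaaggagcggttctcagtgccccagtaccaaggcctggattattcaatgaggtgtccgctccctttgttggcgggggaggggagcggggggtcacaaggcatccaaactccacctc
Apoc2: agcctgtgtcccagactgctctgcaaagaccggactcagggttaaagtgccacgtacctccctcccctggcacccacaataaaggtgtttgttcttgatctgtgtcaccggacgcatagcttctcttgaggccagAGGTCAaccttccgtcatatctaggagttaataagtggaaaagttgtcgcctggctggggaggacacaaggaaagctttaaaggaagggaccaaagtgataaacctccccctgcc
Apoa1: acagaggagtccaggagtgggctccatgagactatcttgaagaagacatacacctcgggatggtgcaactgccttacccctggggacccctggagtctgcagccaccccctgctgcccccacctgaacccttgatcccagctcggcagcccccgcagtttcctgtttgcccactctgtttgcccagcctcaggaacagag
Apob: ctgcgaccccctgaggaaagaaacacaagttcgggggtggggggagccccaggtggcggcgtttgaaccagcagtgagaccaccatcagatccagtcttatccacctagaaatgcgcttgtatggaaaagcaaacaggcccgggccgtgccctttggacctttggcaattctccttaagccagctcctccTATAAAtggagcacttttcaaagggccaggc
The motifs searched, on both strands of the 250 bases before each RefSeq start, were TATAAA (the TATA box) and CCAAT, both general elements of core promoters. To these were added AGGTCA, the hexamer bound by many nuclear receptors. The E-box CACGTG was searched as well. Last came CAAAGTCCA, which the hepatic factor HNF4 binds. Matches of different motifs did not overlap in these genes. AGGTCA was found in 4 of the 11 windows of the 8 genes (Apoc2, Apoc4, Apoh and 1 of the Apoa2 windows), against 14% of 32851 windows of all genes. TATAAA was found in 3 windows (Apob, 1 window each of Apoa2 and Apoe) and CCAAT in 3 (Apoc4 and both windows of Apoa2), against 12.4% and 33.8% of all windows. CACGTG was found in none of the 11, against 6.02% of all windows. CAAAGTCCA was found in none either, against 0.384%. The window shown for Apoe and that for Apoa1 held no match. These are letter matches in short windows and were not tested as sites.

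Apoe (ENSMUSG00000002985), which encodes the receptor ligand apolipoprotein E, was the most abundant apolipoprotein mRNA in both libraries. It stood at 2871 FPKM (WT) and 7643 FPKM (KO) and was 2.66-fold higher in the KO library, with a counting interval of 2.64 to 2.68. Among all 22322 genes it ranked 15 (WT) and 2 (KO). Its share of the summed FPKM was 0.62% (WT) and 1.70% (KO). Of the 52 genes that reached 1000 FPKM in either library, Apoe had the largest log2 ratio of KO over WT (1.41) and was the only one to differ by at least 2-fold. Log2 ratios, but not fold values, were taken after adding 1 FPKM to each level. Intervals are exact 95% intervals from estimated fragment numbers and cover counting error only, not differences between mice. In bulk RNA, more cells of a type cannot be told apart from more RNA per cell.

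Apoc1 (ENSMUSG00000040564), a small inhibitor of lipoprotein lipase and of receptor uptake, was the other abundant gene. It stood at 705 FPKM (WT) and 1305 FPKM (KO), a ratio of 1.85 (counting interval 1.81 to 1.90). Its log2 ratio of 0.89 was short of the 2-fold rule. Apoc1 ranked 69 (WT) and 42 (KO), and among the 52 abundant genes its ratio was the fifth. Relative to Apoe in the same library, Apoc1 stood at 24.5% in WT and 17.1% in KO macrophages.

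Apoc2 and Apoc4 were far below Apoe and Apoc1. Apoc2 (ENSMUSG00000002992) encodes the cofactor that lipoprotein lipase needs, and its mRNA stood at 4.24 FPKM (WT) and 7.46 FPKM (KO) (1.76-fold, counting interval 1.28 to 2.45). Apoc4 (ENSMUSG00000074336), a minor component of triglyceride-rich particles, stood at 3.39 FPKM (WT) and 3.10 FPKM (KO). Its counting interval, 0.72 to 1.15, includes a ratio of 1, so no difference was detectable at this depth. Among the 10 genes, Apoc4 alone had the smaller value in the KO library. Apoc2 equalled 0.15% (WT) and 0.098% (KO) of the Apoe level, so the level of these neighbours in the table lay with the hepatocyte genes rather than with Apoe and Apoc1. Gm44805, an annotated gene of the same strand that spans both, shares 646 of the 813 exon bases of Apoc2 and 119 of the 2537 of Apoc4. It was listed at 0.19 FPKM (WT) and 0.25 FPKM (KO), and with no counting rule for common reads in the sources used here, the levels of Apoc2 and Apoc4 are uncertain.

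**Figure D1:**
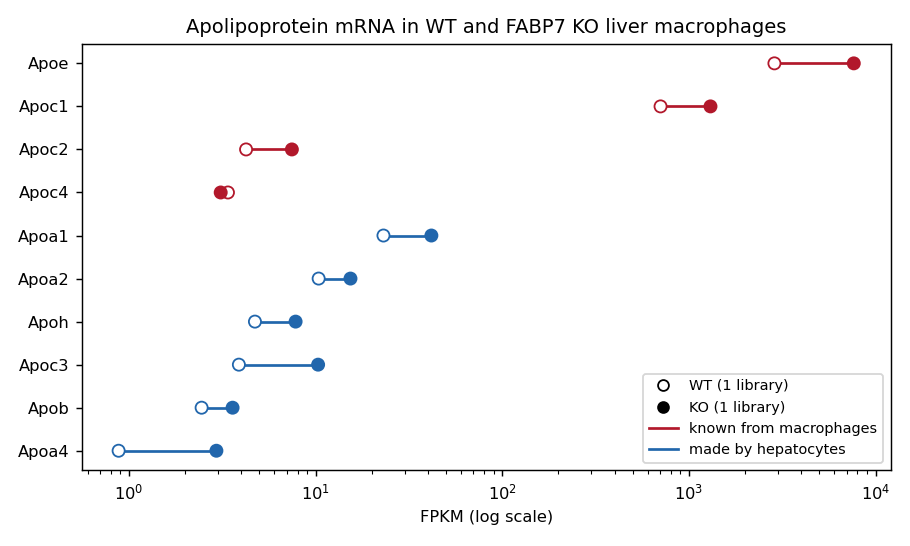
FPKM (x axis, log scale) of each apolipoprotein gene (rows) in the WT library (open circles) and the KO library (filled circles), with genes known from macrophages in red and genes made by hepatocytes in blue. Apoe at 2871 and 7643 FPKM and Apoc1 at 705 and 1305 FPKM lie far to the right of the other 8 genes, and Apoc4 is the only gene whose filled circle lies to the left.

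The genes made by hepatocytes were low in both libraries, and all 6 had the larger value in the KO library. Apoa1 (ENSMUSG00000032083), the main protein of high-density lipoprotein, was the highest of them at 23.1 FPKM (WT) and 41.7 FPKM (KO) (1.81-fold, counting interval 1.62 to 2.02). Apoa2 (ENSMUSG00000005681), its companion in the same particles, stood at 10.4 and 15.4 FPKM (1.48-fold, 1.13 to 1.91). Apoa1 and Apoa2 were both short of the 2-fold rule. Albumin, the main secreted protein of hepatocytes, was 2.11-fold higher in the same library.

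Apoc3 (ENSMUSG00000032081), an inhibitor of lipoprotein lipase and of hepatic uptake of remnants, stood at 3.88 FPKM (WT) and 10.3 FPKM (KO). Its ratio of 2.66 (counting interval 2.01 to 3.54) corresponded to a log2 ratio of 1.21 and passed the 2-fold rule. Apoa4 (ENSMUSG00000032080), made by the liver and the intestine in mice, stood at 0.88 FPKM (WT) and 2.94 FPKM (KO), 3.34-fold higher (2.17 to 5.22). This was the largest ratio among the 10 genes, on about 29 and 96 fragments, and Apoa4 reached the floor of 1 FPKM only in the KO library. On the scale used for the rule its log2 ratio was 1.07, the smallest of those that passed, and Apoc1 at 0.89 was the nearest of those that did not. Gm10680 and Gm47528, annotated on the opposite strand, share 632 and 634 exon bases with Apoa4, and since the library preparation is not described as keeping strand, their reads could not be told apart from those of Apoa4.

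Apob (ENSMUSG00000020609), the scaffold of very-low-density lipoprotein, stood at 2.45 FPKM (WT) and 3.59 FPKM (KO) (1.47-fold, counting interval 1.32 to 1.63). Apoh (ENSMUSG00000000049), a phospholipid-binding plasma glycoprotein that circulates partly on lipoproteins, stood at 4.73 and 7.81 FPKM (1.65-fold, 1.33 to 2.06). Neither passed the 2-fold rule. Apoh shares 30 exon bases with Prkca on the opposite strand, which stood at 4.62 and 3.16 FPKM. With its long transcript, Apob rested on about 616 and 899 fragments, so its interval was the narrowest of the hepatocyte genes despite its low level.

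The order of levels was nearly the same in both libraries. In the WT library it ran from Apoe, Apoc1, Apoa1 and Apoa2, which were each separated beyond counting error, through Apoh, Apoc2, Apoc3 and Apoc4, whose neighbouring intervals overlapped, to Apob and Apoa4. In the KO library Apoc3 moved above Apoh and Apoc2, with overlapping intervals of Apoc3 (8.89 to 11.9 FPKM) and Apoh (6.82 to 8.90 FPKM), and the last places were taken by Apob, Apoc4 and Apoa4, again with neighbouring intervals overlapping.

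Set side by side, 1 of the 4 genes known from macrophages (Apoe) and 2 of the 6 genes made by hepatocytes (Apoc3 and Apoa4) were at least 2-fold higher in FABP7 KO macrophages, and none of the 10 was at least 2-fold lower. The background was 2.21% for the higher and 2.95% for the lower direction, over the 10770 genes that reached 1 FPKM in either library. The ratio was above 0 on the log2 scale for 3 of 4 and 6 of 6 genes, against 50.3% of all measured genes. The median log2 ratio was 0.79 for the genes known from macrophages (range -0.10 to 1.41) and 0.72 for those made by hepatocytes (range 0.41 to 1.21), while it was 0.004 over all measured genes. The medians of the divisions therefore differed little, and the ranges overlapped. Since the genes were picked with these values in view, nothing particular to either division is read from these counts.

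In summed level the divisions lay far apart. The 4 genes known from macrophages summed to 3583 FPKM (WT) and 8958 FPKM (KO) (2.50-fold), which was 0.774% and 1.998% of the summed FPKM of all genes. Apoe and Apoc1 made up nearly all of it, since Apoc2 and Apoc4 together gave 7.63 and 10.6 FPKM. The 6 genes made by hepatocytes summed to 45.4 and 81.7 FPKM (1.80-fold), or 0.0098% and 0.018% of all FPKM.

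**Figure D2:**
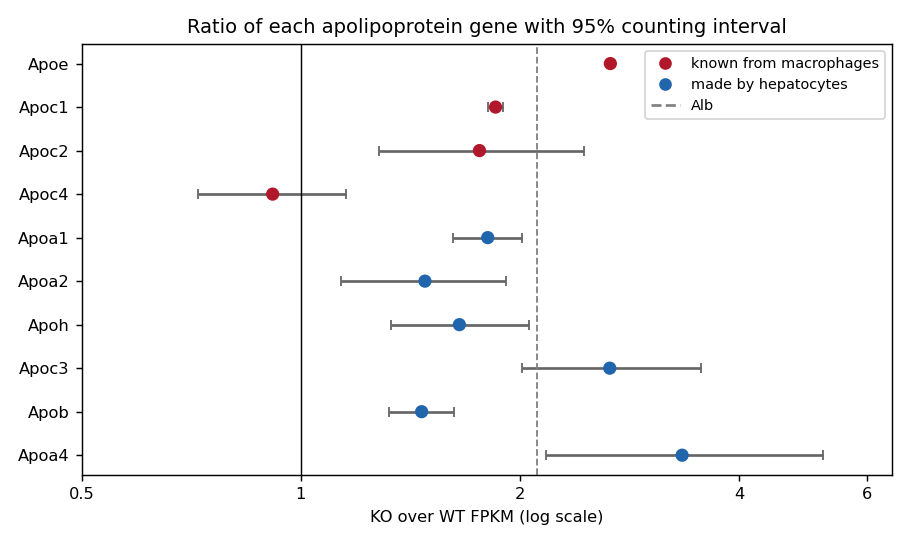
Ratio of KO over WT FPKM (x axis, log scale) of each apolipoprotein gene (points) with its exact 95% interval for counting error (bars), with genes known from macrophages in red and those made by hepatocytes in blue; the dashed line is albumin at 2.11. The bar of Apoe (2.64 to 2.68) is narrower than its point, and the bar of Apoc4 (0.72 to 1.15) is the only one that crosses 1.

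**Figure D3:**
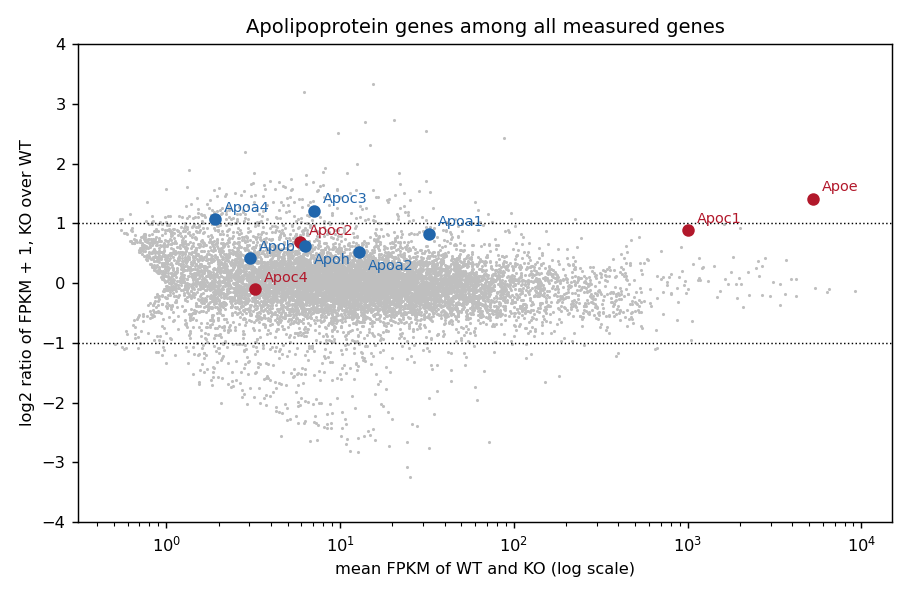
Log2 ratio of FPKM + 1, KO over WT (y axis), against the mean FPKM of both libraries (x axis, log scale) for 10770 measured genes (grey) and the 10 apolipoprotein genes (red, known from macrophages; blue, made by hepatocytes), with dotted lines at 2-fold. Apoe lies above the dotted line at the far right, where no other gene of that abundance reaches 2-fold, and 1 gene is outside the plotted range of -4 to 4.

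The labelled cell type was checked against its markers. All 10 general macrophage markers and all 8 Kupffer cell markers were measured, with medians of 1126 and 1187 FPKM in the WT library. Clec4f, the lectin that defines Kupffer cells, stood at 3188 FPKM (WT) and 4156 FPKM (KO). Cd5l, the most abundant of them, stood at 6696 and 6001 FPKM, and Marco, a scavenger receptor with the largest difference of the list, at 1377 and 714 FPKM (log2 ratio -0.95). The median log2 ratio was 0.26 for the general macrophage markers, with 1 of 10 at least 2-fold higher, and 0.40 for the Kupffer cell markers, with none of 8 past 2-fold in either direction and 6 of 8 above 0.

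Hepatocyte markers that are not apolipoproteins were present as well. Of 36 listed, 35 were measured, 7 were at least 2-fold higher and none lower. The median log2 ratio was 0.81, and 32 of the 35 had a log2 ratio above 0. The summed level was 794 FPKM (WT) and 1514 FPKM (KO). Trf gave the largest part of that sum, at 306 FPKM (WT) and 642 FPKM (KO). Cyp7a1 was the lowest of the list, at 0 FPKM (WT) and 0.01 FPKM (KO). Albumin (Alb) stood at 144 and 305 FPKM. The part of hepatocyte RNA in the values of the apolipoprotein genes was not tested.

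The hepatocyte apolipoproteins stood in different proportions to albumin. Apoa1 equalled 16.01% (WT) and 13.7% (KO) of the albumin level, Apoa2 7.20% and 5.05%, Apoh 3.28% and 2.56%, and Apob 1.70% and 1.18%. Apoc3 went the other way, at 2.69% and 3.38%, as did Apoa4 at 0.61% and 0.97%. The counting intervals of the ratios of Apoa1, Apoa2, Apoh and Apob ended below the albumin ratio of 2.11, that of Apoa4 began above it and that of Apoc3 included it. The albumin ratio was taken without its own counting error. Its log2 ratio, 1.07, lay above the median of the hepatocyte markers (0.81), so the comparison holds for albumin alone and not for hepatocyte markers in general. Apoe stood at 19.9 times albumin (WT) and 25.1 times (KO). Apoc1 stood at 4.89 and 4.28 times albumin.

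Markers of other liver and blood cells also differed between the libraries. At least 2-fold higher in the KO library were 5 of 8 sinusoidal endothelial markers (median log2 ratio 1.47, summed level 175 and 291 FPKM), 3 of 6 measured stellate cell markers (1.11, 19.1 and 55.6 FPKM), 3 of 4 measured neutrophil markers (1.56, 36.1 and 95.4 FPKM) and both measured erythroid markers (1.18, 17.4 and 43.1 FPKM). None of these was at least 2-fold lower. Without the floor of 1 FPKM the medians were 0.82 for stellate, 1.03 for neutrophil and 0.69 for erythroid markers. Csf3r gave the largest part of the neutrophil sum, at 27.3 FPKM (WT) and 51.3 FPKM (KO), and was short of 2-fold. The neutrophil markers under the floor were Ly6g, at 0.18 and 0.12 FPKM, and Cxcr2, at 0.16 and 0.91 FPKM. Monocyte-derived macrophage markers had a median of 0.07 and cholangiocyte and epithelial markers of -0.28 (4 of 7 measured), with none past 2-fold in either direction. No enterocyte marker reached 1 FPKM (4 in the table, Alpi at 0 in both libraries), although Apoa4 and Apob are also genes of the intestine. Stellate and other cells are known to express Apoe too, and the part of these cells in the apolipoprotein values was not tested.

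**Figure D4:**
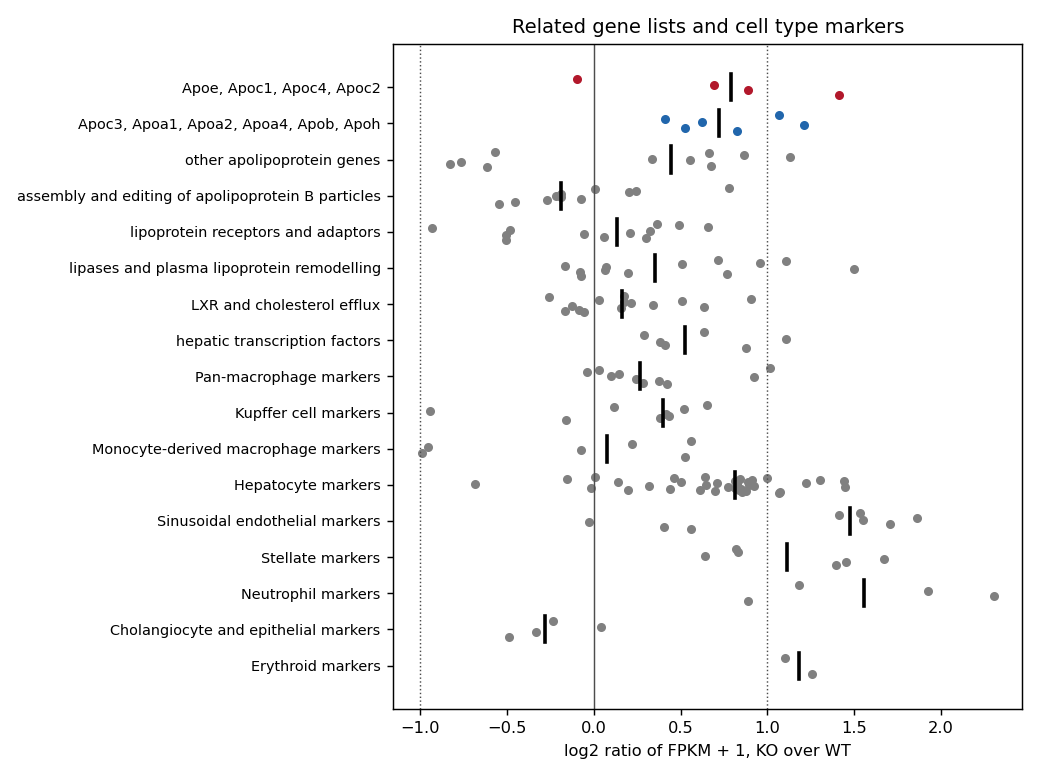
Log2 ratio of FPKM + 1, KO over WT (x axis), of each measured gene (points) of the apolipoprotein divisions (red and blue) and of related gene lists and cell type markers (grey), with the median of each row (black bar) and dotted lines at 2-fold. The medians of the apolipoprotein rows are 0.79, over 4 genes from -0.10 to 1.41, and 0.72. Those of the hepatocyte, general macrophage, Kupffer cell and LXR and cholesterol efflux rows are 0.81, 0.26, 0.40 and 0.16. The sinusoidal endothelial, stellate, neutrophil and erythroid rows have medians of 1.47, 1.11, 1.56 and 1.18.

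The remaining genes of lipoprotein biology were described from lists, with the same rule. Among 20 other apolipoprotein genes, 10 were measured, 1 was at least 2-fold higher and none lower, with a median log2 ratio of 0.44. Over all 20 the median was 0.10, and Apol7c, Apom and Apon reached the floor only in the KO library, as Apol9a did only in the WT library. Apoa5, the neighbour of Apoa4 that modulates lipoprotein lipase, stood at 2.84 FPKM (WT) and 4.64 FPKM (KO), and Clu, the secreted chaperone also called apolipoprotein J, at 5.61 and 9.55 FPKM. Apom, the sphingosine 1-phosphate carrier of high-density lipoprotein, stood at 0.54 and 1.81 FPKM. With the added 1 FPKM its log2 ratio was 0.87, short of the rule.

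Genes that fold, edit or assemble apolipoprotein B were counted next. Of 14 listed, 11 were measured, none passed 2-fold in either direction, and the median log2 ratio was -0.19 (-0.06 over all 14). Mttp, the transfer protein that loads lipid onto apolipoprotein B, stood at 1.28 FPKM (WT) and 1.29 FPKM (KO). Apobec1, the deaminase that edits Apob mRNA, was abundant at 182 and 173 FPKM. The folding enzyme Pdia3 had the lowest ratio of the list, at 445 and 304 FPKM.

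Receptors for apolipoproteins E and B were measured at varied levels. Of 18 receptor and adaptor genes, 12 were measured and none passed 2-fold, with a median log2 ratio of 0.13 (0.05 over all 18). Msr1, a scavenger receptor for modified lipoproteins and the most abundant of the list, stood at 552 FPKM (WT) and 389 FPKM (KO), and Cd36, another scavenger receptor, at 179 and 126 FPKM. Lrp1, a large receptor for apolipoprotein E, stood at 196 FPKM (WT) and 242 FPKM (KO), and Scarb1, the receptor for high-density lipoprotein, at 174 and 181 FPKM.

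Among the lipases and remodelling proteins that apolipoproteins regulate, 12 of 15 genes were measured, 2 were at least 2-fold higher and none lower, with a median log2 ratio of 0.35. Over all 15 the median was 0.07, and Lipc and Lcat reached the floor only in the KO library. Lpl, the lipase that Apoc2 activates and that Apoc1 and Apoc3 inhibit, stood at 550 FPKM (WT) and 521 FPKM (KO). Gpihbp1, the endothelial anchor of that lipase, stood at 5.48 and 17.3 FPKM, and Lipc, the hepatic lipase, at 0.26 and 1.72 FPKM. Pltp, which transfers phospholipid between particles, stood at 389 and 662 FPKM, a log2 ratio of 0.77.

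In the LXR and cholesterol efflux list, to which the control of Apoe and the Apoc genes is usually tied, 14 of 16 genes were measured, none passed 2-fold, and the median log2 ratio was 0.16. Nr1h3, the gene of LXRα, stood at 239 FPKM (WT) and 213 FPKM (KO). The known LXR targets Abca1, which exports cholesterol to apolipoproteins, at 56.2 and 87.8 FPKM, and Mylip, a ubiquitin ligase, at 11.6 and 22.6 FPKM, had log2 ratios of 0.64 and 0.90. Abcg1 and Srebf1, further targets, stood at 72.1 and 16.6 FPKM (WT) and at 80.4 and 13.7 FPKM (KO). Their log2 ratios were 0.15 and -0.26. Arl4c, also of the list, stood at 19.1 FPKM (WT) and 27.6 FPKM (KO), a log2 ratio of 0.51. Of the 14 measured genes, 9 had a log2 ratio above 0, and LXR activity was not tested. The log2 ratio of Apoe, 1.41, lay above that of every measured gene of this list.

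Transcription factors known to act on the apolipoprotein genes in hepatocytes, repressors included, were low, except for the C/EBP factors that myeloid cells share. Of 16 listed, 6 were measured, 1 was at least 2-fold higher and none lower, with a median log2 ratio of 0.52 (0.29 over all 16). The higher gene was Nr2f2, known as a repressor of apolipoprotein genes, at 0.60 FPKM (WT) and 2.45 FPKM (KO), which reached the floor only in the KO library. Hnf4a, an activator, stood at 1.06 FPKM (WT) and 1.52 FPKM (KO). Cebpa, the highest by its mean, stood at 35.2 and 65.3 FPKM, a log2 ratio of 0.87.

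The protein-coding genes that flank the clusters had ratios nearer to 0 than Apoe, Apoc1 and the cluster of Apoa1. Beside the cluster on chromosome 7, Clptm1 stood at 38.5 FPKM (WT) and 37.2 FPKM (KO) and Tomm40 at 14.0 and 11.4 FPKM, with log2 ratios of -0.05 and -0.27 where Apoe had 1.41. Beside the cluster on chromosome 9, Pafah1b2, Sik3 and Zpr1 had log2 ratios of -0.05, 0.06 and -0.04 where Apoa1, Apoc3 and Apoa4 had 0.83, 1.21 and 1.07. Relb and Nectin2, the further flanking genes on chromosome 7, had log2 ratios of 0.62 and 0.39, and Apoa5 on chromosome 9 had 0.55.

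Likeness to Apoe and Apoa1 was measured as the gap in log2 ratio among genes within 1.5-fold of their mean level, over only 2 libraries. For Apoe there were 8 such genes, and the nearest was Clec4f with a log2 ratio of 0.38, a gap of 1.03, followed by mt-Atp6 (0.07) and mt-Co3 (0.06), so no gene of comparable abundance had a similar ratio. For Apoa1 there were 1768 such genes, of which Pcolce2, Herpud1 and Zbtb4 had log2 ratios of 0.82 each, within 0.01 of the 0.83 of Apoa1.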

How the data were processed

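Poly(A) RNA from F4/80-selected liver macrophages was sequenced, with 1 library per genotype. FPKM values of the authors were deposited with 2 decimals for 22322 genes, the same in the table of both libraries and in those of single libraries. Bowtie2 (2.2.8) and TopHat2 (2.1.1) appear, with no role, in the submitters' processing notes. Genome build, annotation and counter: not given in the sources used here. Ensembl IDs were matched to symbols for 22267 genes with GENCODE M21, and 55 IDs had none. RefSeq and GENCODE coordinates refer to GRCm38. GENCODE gave the exon lengths used for the fragment numbers, and the flanking and overlapping genes. The RefSeq windows were not combined with the deposited values.

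The apolipoprotein genes and all gene lists were chosen with earlier results of these data known. Each log2 ratio was taken as KO over WT after adding 1 FPKM, over genes that reached 1 FPKM in either library, and a ratio of at least 1 in either direction (2-fold) was the size rule. With 1 library per genotype no test was made. Named were all 10 genes and, within each list, genes among the 3 largest ratios or 3 highest means, flanking genes and the genes nearest in ratio. Other genes were named outside this rule, for their known role and after their values were seen. They were Mttp, Apobec1, Abcg1, Srebf1, Lcat, Apon, Apol9a, Hnf4a, Cyp7a1, Ly6g, Cxcr2, Alpi, Prkca, Gm44805, Gm10680 and Gm47528. Fragment numbers were estimated from exon length and a depth of 18040000 (WT) and 17980000 (KO) fragments, at which 90.5% and 90.6% of low values of genes with 1 transcript lay within 0.15 of a whole number, where an even spread gives 30%. Since genes with several transcripts may have been counted over other lengths, fragment numbers are approximate. The ratio, the size rule and the depth estimate were tested on simulated libraries, in which the exon lengths were taken as exact. The counting intervals and the motif search were not tested in this way. Some genes of the lists are not reported here by name. Alternatives were other pseudocounts, floors, scalings, size rules and members. Python 3.11.15, NumPy 2.4.6, pandas 2.3.3, SciPy 1.17.1 and Matplotlib 3.10.9 were used.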

Additional observations from a re-analysis of the deposited data

How the results depend on the processing

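Of 57 values of single apolipoprotein genes under other settings, 54 kept their direction and side of the 2-fold rule. The exceptions were Apoe (1.41), Apoc3 (1.21) and Apoa4 (1.07) under a size rule of 1.5 on the log2 scale, which left 0 genes past it in both divisions. With a floor of 5 FPKM, 1 hepatocyte gene (Apoc3) was higher, since Apoa4, Apob and Apoc4 fall under that floor. Without Apoc4 and Apoc2 the median of the macrophage genes was 1.15. The geometric mean of FPKM + 1 in place of the sum, which weights Apoc4 and Apoc2 as much as Apoe, gave a ratio of 1.65. For the hepatocyte genes it gave 1.71, so the order of the divisions was the reverse of that by sums (2.50 and 1.80). Over all measured genes, 562 were higher with a pseudocount of 0.1, 143 with a floor of 5 FPKM and 50 at a size rule of 1.5, where 139 were lower, against 238 and 318. With a floor of 5 FPKM the medians of the other apolipoprotein (-0.69), receptor (-0.00038) and monocyte-derived macrophage (-0.51) lists changed sign. Without a floor the medians of the other apolipoprotein (0.10), apolipoprotein B assembly (-0.06), receptor (0.05), lipase (0.07, also with a floor of 5 FPKM), hepatic factor (0.29), neutrophil (1.03) and cholangiocyte (-0.14) lists kept their sign and were over 1.5 times nearer to 0. The stellate median fell under 1 without a floor (0.82) and when scaled to equal summed FPKM (0.86), and the erythroid median without a floor (0.69). A floor of 5 FPKM leaves fewer genes, and no floor adds genes under 1 FPKM, as with 2 stellate and 2 erythroid markers. Apart from this, the cause was not tested. Dividing the KO values by 0.974 (median ratio) or 0.969 (summed FPKM) moved the median of all genes by 0.03 and 0.04 and changed no call of an apolipoprotein gene. No paired analysis was possible because there was 1 library per genotype. Depth limits Apoc2, Apoc3, Apoc4, Apoa2 and Apoa4, each on fewer than 200 estimated fragments per library.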

Other observations

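Several genes named apolipoproteins act away from plasma lipoproteins and had values of their own. Apoo and Apool, subunits of the complex that shapes the inner mitochondrial membrane, stood at 7.48 and 11.6 FPKM in the WT and at 3.77 and 7.22 FPKM in the KO library, log2 ratios of -0.83 and -0.62. Apol9b and Apol9a, near-identical interferon-induced genes that can share reads and that were named after their values were seen, stood at 6.14 and 1.18 FPKM in the WT and at 3.20 and 0.47 FPKM in the KO library. Apol7c, a gene of the same family, was at least 2-fold higher, at 0.64 and 2.59 FPKM. None of the genes with a lower value in the KO library passed the 2-fold rule. For Apol9a this rests on the added 1 FPKM, with which its log2 ratio was -0.57.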
